A study of Mus musculus with 2 samples.

Results

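Open chromatin at the ends of long non-coding RNA (lncRNA) genes was examined in basal cells of the mouse interfollicular epidermis, with and without mechanical expansion of the skin. A merged region of the count tables was included when it was autosomal, held at least 20 counts summed over both libraries, overlapped an annotated end of an lncRNA gene, and lay over 5 kb from every end of a protein-coding gene. Gene ends came from a RefSeq table of GRCm38.p6. An end is the outermost annotated position of a gene on either side. Other starts inside a protein-coding gene were not counted as ends, so a region at such a start could be included. Of 109257 merged regions, 1618 met the position rule, 71 of these held under 20 counts, and 1547 remained, at ends of 1525 of the 12408 autosomal lncRNA genes of the table. Counts were not used to choose them beyond the minimum. ATAC-seq, which uses the transposase Tn5 to cut and tag open DNA, gave the measure of accessibility. Back skin cells with ITGA6 (an integrin chain that holds cells to the basement membrane) and without CD34 (found on hair follicle stem cells) were sorted. The control group was 1 untreated mouse and the stretched group was 1 mouse whose tissue had been stretched, both of the outbred CD1 stock, with 10000 sorted cells per library. The sources used here give no age or sex of the animals and neither the device nor the length of the stretching.

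Long non-coding RNAs are transcripts that do not serve as templates for known proteins. Many start at promoters like those of messenger RNAs, and others start within distal enhancers. Some act on chromatin close to where they are made, some bind proteins or other RNAs elsewhere, and some are precursors from which microRNAs (miRNAs) or small nucleolar RNAs (snoRNAs) are cut. For many listed genes no function is known, which is why most symbols here are catalogue numbers with the prefix Gm or the suffix Rik. In the epidermis, lncRNAs such as TINCR and DANCR are known from human keratinocytes for effects on differentiation, and miR-205 is known as an abundant miRNA of basal epithelial cells.

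Promoters of 8 genes on which the results below turn are shown, because they span the range from CpG-dense to CpG-poor starts. They are RefSeq windows of 300 bases on GRCm38.p6, from 250 bases before the annotated start to 50 after it, written 5′ to 3′ along the gene, with each CG pair in capitals. The first 4 belong to genes whose start was called higher in the stretched library, the next 2 to genes whose start was called lower, and the last 2 to genes of epidermal interest whose start was called neither. They were picked after their values were seen.
Gm26901, chr1:7398047-7398346, minus strand: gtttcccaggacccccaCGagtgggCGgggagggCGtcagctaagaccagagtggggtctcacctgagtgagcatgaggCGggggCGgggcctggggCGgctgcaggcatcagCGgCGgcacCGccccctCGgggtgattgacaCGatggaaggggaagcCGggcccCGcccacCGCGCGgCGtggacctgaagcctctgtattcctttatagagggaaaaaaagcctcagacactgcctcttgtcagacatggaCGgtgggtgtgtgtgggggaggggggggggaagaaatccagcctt
9430037G07Rik, chr9:88599194-88599493, minus strand: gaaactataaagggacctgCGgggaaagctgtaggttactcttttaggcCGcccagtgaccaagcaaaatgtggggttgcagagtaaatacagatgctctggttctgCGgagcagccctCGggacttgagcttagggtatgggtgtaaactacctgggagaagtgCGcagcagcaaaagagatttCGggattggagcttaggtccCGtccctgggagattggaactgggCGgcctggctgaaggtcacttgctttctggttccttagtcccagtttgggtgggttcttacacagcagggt
Snhg5, chr9:88522848-88523147, minus strand: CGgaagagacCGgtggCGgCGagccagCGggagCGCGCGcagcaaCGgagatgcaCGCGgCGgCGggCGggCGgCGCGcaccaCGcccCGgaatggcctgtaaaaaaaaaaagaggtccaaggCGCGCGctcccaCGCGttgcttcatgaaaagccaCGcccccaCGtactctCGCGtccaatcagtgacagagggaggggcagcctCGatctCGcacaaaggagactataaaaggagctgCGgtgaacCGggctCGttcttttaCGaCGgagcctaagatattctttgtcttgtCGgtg
Dubr, chr16:50732724-50733023, minus strand: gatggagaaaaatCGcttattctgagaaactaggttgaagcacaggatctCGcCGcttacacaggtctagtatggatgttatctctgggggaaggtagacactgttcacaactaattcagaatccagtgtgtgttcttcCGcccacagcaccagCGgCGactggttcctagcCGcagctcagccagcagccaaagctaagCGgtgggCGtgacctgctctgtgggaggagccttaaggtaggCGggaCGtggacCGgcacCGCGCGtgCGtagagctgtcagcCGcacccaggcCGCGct
Gm29933, chr11:95808555-95808854, minus strand: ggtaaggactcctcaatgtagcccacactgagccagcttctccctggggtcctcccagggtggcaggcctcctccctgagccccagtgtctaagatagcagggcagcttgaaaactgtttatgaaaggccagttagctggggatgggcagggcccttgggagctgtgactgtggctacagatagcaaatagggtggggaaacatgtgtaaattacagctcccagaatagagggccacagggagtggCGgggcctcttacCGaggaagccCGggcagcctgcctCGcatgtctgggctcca
G430095P16Rik, chr8:84722807-84723106, plus strand: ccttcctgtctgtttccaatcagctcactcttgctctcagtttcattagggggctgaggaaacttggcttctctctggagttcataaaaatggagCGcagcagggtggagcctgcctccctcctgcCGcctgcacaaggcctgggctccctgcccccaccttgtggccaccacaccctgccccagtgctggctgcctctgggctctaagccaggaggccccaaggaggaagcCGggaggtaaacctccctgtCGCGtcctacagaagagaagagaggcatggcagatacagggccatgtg
Mir205hg, chr1:193510161-193510460, minus strand: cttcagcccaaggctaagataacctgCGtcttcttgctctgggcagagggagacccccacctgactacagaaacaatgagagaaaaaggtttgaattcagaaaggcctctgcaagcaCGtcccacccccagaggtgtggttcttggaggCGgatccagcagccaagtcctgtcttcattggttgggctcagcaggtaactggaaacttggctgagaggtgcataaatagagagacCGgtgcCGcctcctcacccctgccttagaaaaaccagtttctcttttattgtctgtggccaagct
Tincr, chr17:56554338-56554637, minus strand: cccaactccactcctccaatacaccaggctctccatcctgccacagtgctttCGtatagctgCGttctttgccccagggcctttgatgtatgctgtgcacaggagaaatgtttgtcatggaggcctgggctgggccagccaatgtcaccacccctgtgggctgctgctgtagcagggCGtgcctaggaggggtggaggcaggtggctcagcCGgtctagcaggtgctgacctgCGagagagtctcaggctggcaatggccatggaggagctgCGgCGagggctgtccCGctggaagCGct
The window of Snhg5 holds 36 CG pairs, that of Dubr 19 and that of Gm26901 18. The window of 9430037G07Rik, which had 1 of the largest folds, holds 8, and the 2 windows called lower hold 4 (Gm29933) and 5 (G430095P16Rik). The order in these 8 picked windows does not stand for all called starts. By the CpG classes defined below, 50 of the 69 starts called higher and 55 of the 59 called lower were CpG-poor. Of all 958 starts with a sequence, 797 were CpG-poor.

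Several of the genes carry miRNAs. Mature sequences from RefSeq are shown for the main miRNAs inside 4 of these host genes, 5′ to 3′, with the seed (bases 2 to 8, which pair with target messages) in capitals.
miR-205-5p, in Mir205hg: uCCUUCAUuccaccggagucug
miR-200b-3p, in Gm13648: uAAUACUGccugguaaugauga
miR-429-3p, in Gm13648: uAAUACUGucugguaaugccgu
miR-200a-3p, in Gm13648: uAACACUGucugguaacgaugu
miR-183-5p, in Mirc35hg: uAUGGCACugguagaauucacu
miR-96-5p, in Mirc35hg: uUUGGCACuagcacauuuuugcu
miR-182-5p, in Mirc35hg: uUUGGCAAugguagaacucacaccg
miR-15a-5p, in Dleu2: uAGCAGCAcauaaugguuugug
miR-16-5p, in Dleu2: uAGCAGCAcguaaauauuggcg
The seeds of miR-200b-3p and miR-429-3p are identical, as are those of miR-15a-5p and miR-16-5p, whereas miR-205-5p shares its seed with none of the others printed.

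After filtering, 31944854 control fragments and 23876613 stretched fragments were left, and counts over all merged regions summed to 8820178 and 11803785. Folds are stretched over control after TMM scaling (a stretched-to-control ratio of 0.9463), with an exact 95% interval of the share of counts in the stretched library. The interval covers counting error only, since there was 1 library per group, no spread between animals could be measured, and no test was run. The sources used here do not say whether duplicates were counted. Regions at gene ends were found for 7 of 8 markers of basal keratinocytes (1837 control and 1999 stretched counts, with no region at the ends of Trp63). The same held for 2 of 6 suprabasal markers (158 and 108, with none at Krt10, Lor, Flg or Tgm3) and for 6 of 6 markers of the hair follicle (532 and 432). Markers of fibroblasts (1 of 6, 25 and 14 counts), endothelium (1 of 4, 60 and 27) and immune cells (1 of 5, 29 and 38) were mostly without a region, while Pmel alone gave 406 and 541 of the 435 and 562 counts of the melanocyte list. Of 3 Merkel cell markers, 2 had a region (114 and 154). The part of these cell types in the results below was not tested.

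The lncRNA ends were mostly open in both animals. A peak listed by the authors in both libraries overlapped 1165 of the 1547 regions (75.3%), against 60.3% of all 93155 autosomal regions with at least 20 counts. A further 89 had a control peak only, 143 a stretched peak only and 150 neither. The regions had a median length of 950 bp and a median summed count of 108, and the counts ranged from 20 to 46151. All autosomal regions had a median of 70, and the share with both peaks rose with the count. It was 18.9%, 74.6% and 97.2% of lncRNA ends at 20 to 49, 50 to 99 and 100 to 199 counts. The same shares were 13.6%, 72.8% and 97.4% of regions over 5 kb from protein-coding ends without an lncRNA end. Where both libraries had a peak, the median of the authors' fold enrichment was 5.85 for the control and 7.10 for the stretched cells, and over all such autosomal regions it was 5.43 and 6.70. The lncRNA ends lay a median of 29976 bp from the nearest protein-coding end, 263 of them lay over 100 kb away, and 441 were inside a protein-coding gene. Their share of all counts was 1.63% (control) and 1.27% (stretched).

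A region was called higher or lower when its fold was at least 2 in that direction and its interval excluded 1. Of the lncRNA ends, 96 (6.21%) were called higher in the stretched library, against 6.99% of all autosomal regions, and 100 (6.46%) were called lower, against 8.79%. The other 1351 were not called. The median log2 fold was -0.00 (quartiles -0.43 and 0.42), beside -0.01 for all autosomal regions. Both shares lay near or below the background, and the lncRNA ends held more counts (a median of 108 against 70), so the set as a whole is not set apart by its calls. With counts scaled by library totals, the median log2 fold of all autosomal regions moved to -0.51 and that of the lncRNA ends to -0.50, with 14 called higher and 327 lower. With totals outside regions of over 10000 counts these medians were -0.15 and -0.14. Every direction below is relative to the TMM scaling.

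**Figure D1:**
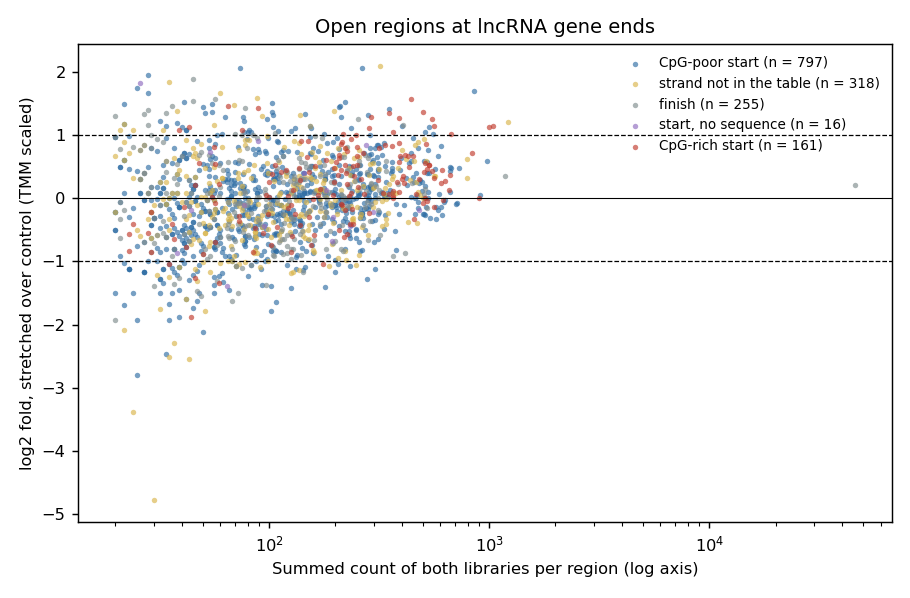
Each point is 1 of the 1547 regions at lncRNA ends, placed by its summed count (log axis) and its log2 fold, stretched over control, and coloured by the kind of gene end. Dashed lines mark 2-fold higher and lower; the cloud is centred near 0, narrows as counts grow, and the single point at the far right is AY036118 with 46151 counts.

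The fold moved with the count. Among lncRNA ends with 20 to 49 counts the median log2 fold was -0.16, with 22 called higher and 49 lower of 338. From 100 to 199 counts it was -0.01 (15 higher, 16 lower of 396), from 200 to 399 it was 0.11 (18 and 5 of 306), and at 400 or more it was 0.31 (14 and 0 of 125). Thus regions with many counts leaned towards the stretched library and sparse ones towards the control. Far regions with no lncRNA end, 64279 in number and over 5 kb from protein-coding ends, also ran upwards, from -0.13 through -0.01 at 100 to 199 counts to 0.22 at 400 or more, where 3.98% were called higher and 1.46% lower, against 11.2% and 0% of the lncRNA ends. The trend with count was thus not limited to lncRNA ends, the difference between these classes was not tested, and classes are set side by side within count ranges below.

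The promoter table gave a strand for 1212 of the genes, which separated 974 regions at a start of transcription from 255 at the other end (finish), and 318 had no strand. At starts, 70 regions (7.19%) were called higher and 60 (6.16%) lower, with a median log2 fold of 0.01. At finishes, 14 (5.49%) were called higher and 14 lower, with a median of -0.03. These shares lay near or below those of all autosomal regions, 6.99% higher and 8.79% lower. Peaks in both libraries covered 77.2% of starts and 68.6% of finishes. Where several listed peaks of a library overlapped a region, the one with the highest pileup (signal at the summit) was used. Its summit lay within 250 bp of the start at 63.2% of 815 starts with a control peak. The share was 67.9% of 833 starts with a stretched peak, and the median distances were 175 and 155 bp. At finishes the corresponding shares were 47.0% of 185 and 45.1% of 204, and the median distances 269 and 280.5 bp. Starts thus carried summits closer to the annotated position than finishes in both libraries.

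**Figure D2:**
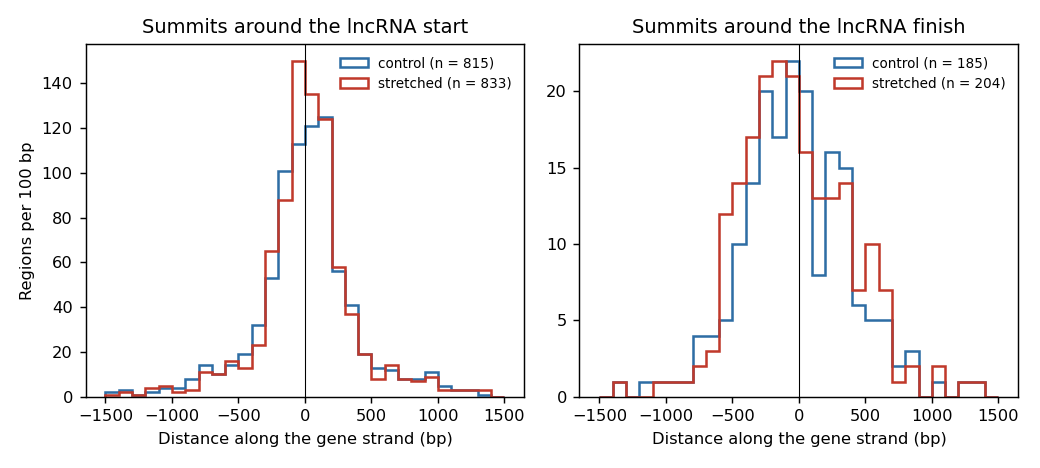
Histograms of the distance from the annotated start (left) or finish (right) of an lncRNA gene to the peak summit, along the gene's strand in bp, in bins of 100 bp, with 1 line per library. Summits gather at the start, with 63.2% (control) and 67.9% (stretched) within 250 bp, and spread more widely around the finish.

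Starts fell into CpG-rich and CpG-poor promoters. A window of 300 bases was called CpG-rich when its GC content was above 50% and its CG pairs were at least 0.6 of the number expected from its C and G content. Of 958 starts with a sequence, 161 (16.8%) were CpG-rich, against 11.97% of all 11588 lncRNA windows and 72.3% of 8140 starts of protein-coding genes with a region. The median number of CG pairs was 6 at lncRNA starts and 22 at protein-coding ones. Most open lncRNA starts over 5 kb from protein-coding ends were therefore of the CpG-poor kind. The 1521 lncRNA ends closer to protein-coding ends are outside this share. Of the 8 promoters printed, those of Snhg5 and Dubr were CpG-rich, and that of Gm26901 fell just short, with 0.582 of the expected CG pairs.

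Over all counts, CpG-rich lncRNA starts had a higher median fold than CpG-poor ones. At the 161 CpG-rich starts the median log2 fold was 0.26 (quartiles -0.16 and 0.66), with 19 (11.8%) called higher and 4 (2.48%) lower. At the 797 CpG-poor starts it was -0.03 (quartiles -0.45 and 0.38), with 50 (6.27%) higher and 55 (6.90%) lower. The 5889 CpG-rich starts of protein-coding genes had a median of 0.39, with 11.6% higher and 1.29% lower, and a median count of 293. CpG-rich starts also held more counts, a median of 219 against 103 at CpG-poor ones. At 200 to 399 counts the medians were 0.45 (n = 55) at CpG-rich and 0.06 (n = 154) at CpG-poor lncRNA starts, and at 400 or more they were 0.43 (n = 37) and 0.22 (n = 60). At 100 to 199 counts they were 0.09 (n = 34) and 0.02 (n = 194). Below 100 counts the order was the other way, -0.16 (n = 18) and -0.13 (n = 203) at 50 to 99 counts and -0.55 (n = 17) and -0.29 (n = 186) at 20 to 49. The difference of the medians was 0.29, and it was 0.13 after the trend with count was removed and 0.12 for starts over 20 kb from protein-coding ends, where 67 CpG-rich starts remained.

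**Figure D3:**
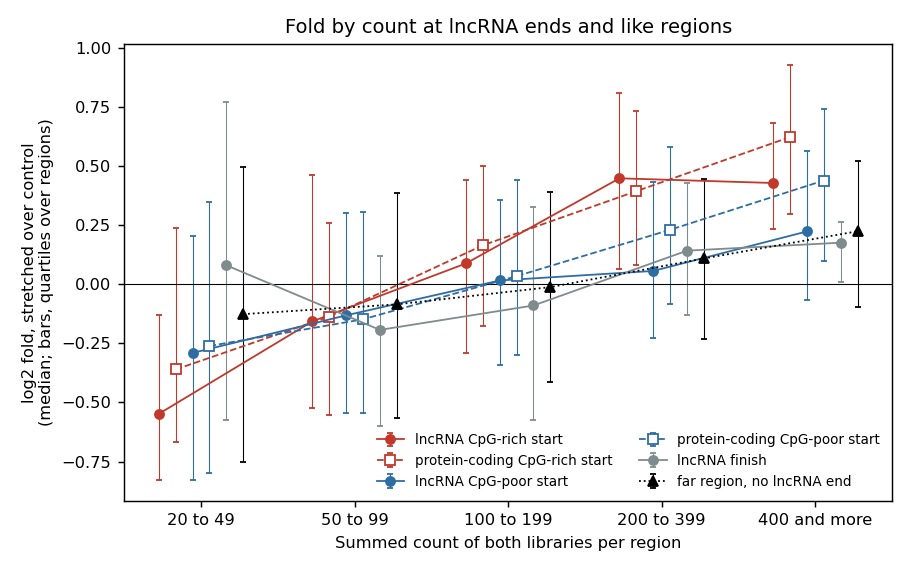
Median log2 fold, stretched over control, in 5 ranges of summed count, for lncRNA starts, lncRNA finishes, protein-coding starts and far regions without an lncRNA end; bars span the quartiles over regions and are not replicate errors. All 6 classes run from below or near 0 in sparse regions to above 0 in regions of 400 or more counts, and CpG-rich lncRNA starts have a median of 0.09, 0.45 and 0.43 in the 3 upper ranges, where CpG-rich protein-coding starts have 0.16, 0.39 and 0.62.

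The fold was not graded evenly with CpG content. Starts with 25 to 61 CG pairs had a median log2 fold of 0.28, with 12 (15.8%) called higher and 0 lower of 76. Those with 15 to 24 had 0.12 (8 higher, 6 lower of 90) and those with 6 to 9 had -0.08 (12 higher, 17 lower of 229). At the poorest starts, with 0 to 2 pairs, 18 of 158 (11.4%) were called higher and 7 lower, with a median of 0.05. Calls in the higher direction were thus most frequent at both extremes, beside 6.99% higher and 8.79% lower of all autosomal regions. The median count was 245 at the richest starts and 78.5 at the poorest, and its part in these calls was not tested. Across the 958 starts, which share both libraries and differ in depth, CG pairs and log2 fold had a Pearson correlation of 0.13 and a Spearman correlation of 0.08, and summed count and log2 fold a Spearman correlation of 0.30.

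Short motifs were searched on both strands of the start windows. The AP-1 letters TGANTCA, bound by FOS and JUN proteins, were in 17.4% of the 797 CpG-poor starts (139), 5.59% of the CpG-rich ones, 9.31% of all lncRNA windows and 7.81% of all 32851 promoter windows. CpG-poor starts with them gave 15 called higher and 7 lower with a median log2 fold of 0.03 and a median count of 71, and those without gave 35 and 48, -0.05 and 107. They were in 17 of 69 starts called higher (24.6%) and 8 of 59 called lower (13.6%). The KLF/SP letters GGGCGG, which contain a CG pair and so follow the CpG class, were in 68.3% of CpG-rich and 16.3% of CpG-poor starts, and in 35.7% of all windows. The 110 CpG-rich starts with them gave 15 higher and 1 lower (median 0.32), and those without gave 4 and 3 (0.15). At CpG-poor starts the order of the medians was the other way, -0.12 for the 130 with the letters (7 higher, 6 lower) and -0.02 for those without (43 and 49). The TEAD letters GGAATG were in 20.7% of CpG-poor and 9.94% of CpG-rich starts, and in 10 of 69 starts called higher and 11 of 59 called lower. Beside these calls, 6.99% of all autosomal regions were called higher and 8.79% lower. Whether any of these letters go with the calls was not tested, and nothing is read from the counts. A match describes the letters in the window and is not evidence of binding.

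Among regions of at least 100 counts, the largest folds towards the stretched library were at genes that have only catalogue symbols. With library totals 4 of these 10 folds were under 2, those of Gm28644, Gm34755, 4930542C21Rik and Gm30189 (1.85 to 1.95). At the end of Gm32168 on chr15:74486659-74488080 there were 63 control and 255 stretched counts, which is a fold of 4.28 (3.23 to 5.73). At the start of 9430037G07Rik on chr9:88599128-88599965, 10304 bp from Trim43a, there were 53 and 210 counts, a fold of 4.19 (3.08 to 5.77). Both were sparse in the control. At the start of Gm26901 on chr1:7397215-7398571, 223587 bp from the nearest protein-coding end, there were 209 and 642 counts, a fold of 3.25 (2.77 to 3.81). Gm26901 also stood among the 10 regions with the most counts, so its fold has the narrowest interval of these 3, and it was 2.16 after removal of the trend with count. Gm46751, inside Itprid2 and with 29 CG pairs in its window, had 116 and 327 counts, a fold of 2.98 (2.40 to 3.71). Gm28644 had 58 and 151 counts, a fold of 2.75 (2.02 to 3.79), and its nearest protein-coding gene, Ptp4a1, which encodes a tyrosine phosphatase, was also called higher at its ends (219 and 560, fold 2.70). Gm30189, inside the imprinted Gnas locus, had 57 and 141 counts, a fold of 2.61 (1.91 to 3.62). The outermost ends of Gnas, which encodes a G protein subunit, had 47 and 20, a fold of 0.450. Any starts inside Gnas were not part of that value. The outermost ends of the neighbour thus shared the direction at Gm28644 and had the opposite one at Gm30189. The remaining 4 of the 10, namely 4930555B11Rik, Gm40441, Gm34755 and 4930542C21Rik, had folds of 2.66 to 2.88.

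The largest folds in the other direction were spread over as many chromosomal places. At the start of Gm29933 on chr11:95808459-95809263 there were 80 control and 22 stretched counts, which is a fold of 0.291 (0.173 to 0.471). Gm30769, inside Ano4, had 82 and 25 counts, a fold of 0.322 (0.197 to 0.509). LOC115490137, inside Pitpnm2, had 93 and 33 counts, a fold of 0.375 (0.244 to 0.563). The outermost ends of Ano4 and of Pitpnm2 were not called. G430095P16Rik, on chr8:84722744-84723940 inside Nfix, the gene of a nuclear factor I transcription factor, had the most counts of the 10, 199 and 78, a fold of 0.414 (0.315 to 0.541). B020018J22Rik had 132 and 47 counts, a fold of 0.376 (0.264 to 0.529). The other 5 were Gm34178, Gm16316, Gm40876, Gm52705 and Gm45202, with folds of 0.380 to 0.446. Of the 10 genes, 6 lay inside a protein-coding gene.

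**Figure D4:**
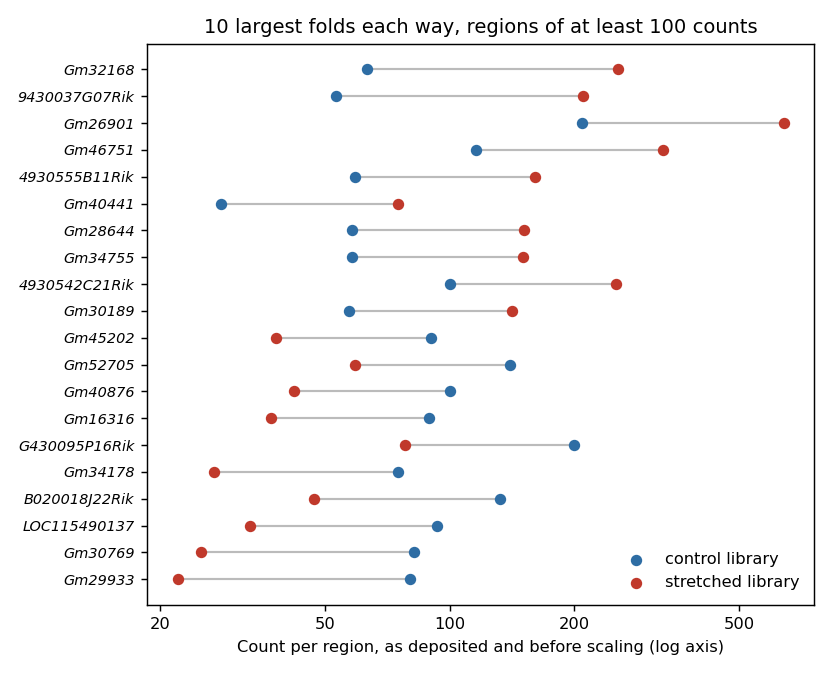
Deposited counts per region (log axis, before scaling) in the control and stretched library for the 10 largest folds in each direction among lncRNA ends of at least 100 counts. Gm26901 (209 and 642) and G430095P16Rik (199 and 78) hold the most counts of their direction.

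The regions with the most counts were open in both animals and were split in their fold. AY036118, on chr17:39847463-39848769, had 22047 and 24104 counts, a fold of 1.16 (1.13 to 1.18), and was the only lncRNA end with over 10000 counts in a library. It overlaps an annotated pseudogene of 18S ribosomal RNA, Rn18s-rs5, and its authors' fold enrichment was low, 2.09 (control) and 2.56 (stretched). Its direction depended on the processing, with a fold of 0.817 with library totals and 0.469 after removal of the trend with count. Gm51663, inside Kifap3, had 381 and 835 counts, a fold of 2.32 (2.05 to 2.62), with an enrichment of 21.4 and 23.4. The start of 1700028E10Rik, inside Stard13 and with 38 CG pairs, had 335 and 701 counts, a fold of 2.21 (1.94 to 2.53). Gm7854, inside Cpeb2, had 325 and 670, a fold of 2.18 (1.91 to 2.49). These 3 and Gm26901 were called higher, and after removal of the trend with count Gm51663, 1700028E10Rik and Gm7854 had folds of 1.42, 1.41 and 1.4004. With library totals these 3 folds were 1.64, 1.56 and 1.54. By contrast 1700016A09Rik, inside Gse1, had 461 and 437 counts, a fold of 1.002 (0.877 to 1.14). Gm36653, Gm27572, Gm29908 and Gm13648 had folds of 1.27, 1.501, 1.65 and 1.04. After removal of the trend with count the folds of 1700016A09Rik, Gm36653, Gm27572 and Gm13648 were 0.659, 0.789, 0.969 and 0.679, so their direction turned, and that of Gm29908 was 1.101.

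A list of 84 lncRNA genes with described roles was read next. Of these, 70 matched a gene of the table, 22 had a region at an end over 5 kb from protein-coding ends, 22 had one closer than that, and 26 had no autosomal region at an end. Among the 22, 2 were called higher, at Snhg5 and Dubr, and 0 lower, with a median log2 fold of 0.07. The 2 are 9.09% of the 22, near the 6.99% of all autosomal regions called higher, while 8.79% of those were called lower. The intervals lay above 1 at 7 and below 1 at 3. With library totals the folds of Snhg5 and Dubr were 1.79 and 1.82, and that of Dubr was 1.93 after removal of the trend with count, so neither call held under every setting.

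Hosts of snoRNAs (Snhg genes), whose introns release guide RNAs for ribosomal RNA modification, had folds on both sides of 1. Snhg5 had 103 control and 247 stretched counts, which is a fold of 2.53 (2.01 to 3.22). Snhg17 had 107 and 140, a fold of 1.38 (1.07 to 1.80), and Snhg15 67 and 85, a fold of 1.34 (0.962 to 1.88). At these 3 the stretched library held more, though with library totals Snhg17 and Snhg15 had folds of 0.978 and 0.948. Snhg4 had 56 and 55, a fold of 1.04, and Snhg11 had 33 and 17, a fold of 0.544 (0.284 to 1.01). Snhg20 had 82 and 43, a fold of 0.554 (0.374 to 0.811). Snhg11 and Snhg20 were called lower with library totals (0.385 and 0.392). Of the 6, 1 was called higher and 0 lower with TMM scaling. Of all autosomal regions 6.99% were called higher and 8.79% lower, and nothing is read from calls at so few regions. The starts of Snhg20 and Snhg11 are CpG-rich like that of Snhg5, with 25 and 21 pairs.

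Hosts of miRNAs were taken by position, as lncRNA genes that contain a miRNA on the same strand or where the strand of the gene is unknown. There were 17 such genes at 16 regions, with 0 called, a median log2 fold of 0.21 and folds from 0.554 to 1.79. Of all autosomal regions 6.99% were called higher and 8.79% lower, so nothing is read from 0 calls at 16 regions. Mir205hg, the host of miR-205, had the largest of these folds, with 116 control and 196 stretched counts, 1.79 (1.41 to 2.27). Dleu2, the host of miR-15a and miR-16, had 226 and 309 counts, a fold of 1.44 (1.21 to 1.72). That fold was 1.02 with library totals and 1.07 after removal of the trend with count. Gm6145, which contains miR-6390, had 85 and 141, a fold of 1.75 (1.33 to 2.32). These 3 intervals lay above 1, that of Snhg20 (0.554), which contains miR-6516, lay below 1, and no fold reached 2 in size. Gm13648, which contains miR-200b, miR-200a and miR-429, a cluster known for keeping epithelial identity, had 459 and 450 counts, a fold of 1.04 (0.908 to 1.18). Mirc35hg, which contains miR-183, miR-96 and miR-182, had 323 and 336, a fold of 1.10 (0.941 to 1.28). Gm32817 and Gm53058 share the region of miR-193b and miR-365, with 127 and 140 counts, a fold of 1.16 (0.910 to 1.49). The fold of Gm13648 depended on the processing, 0.733 with library totals and 0.679 after removal of the trend with count. Gm6145, Mirc35hg, Gm32817 and Gm53058 were named after their values were seen.

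**Figure D5:**
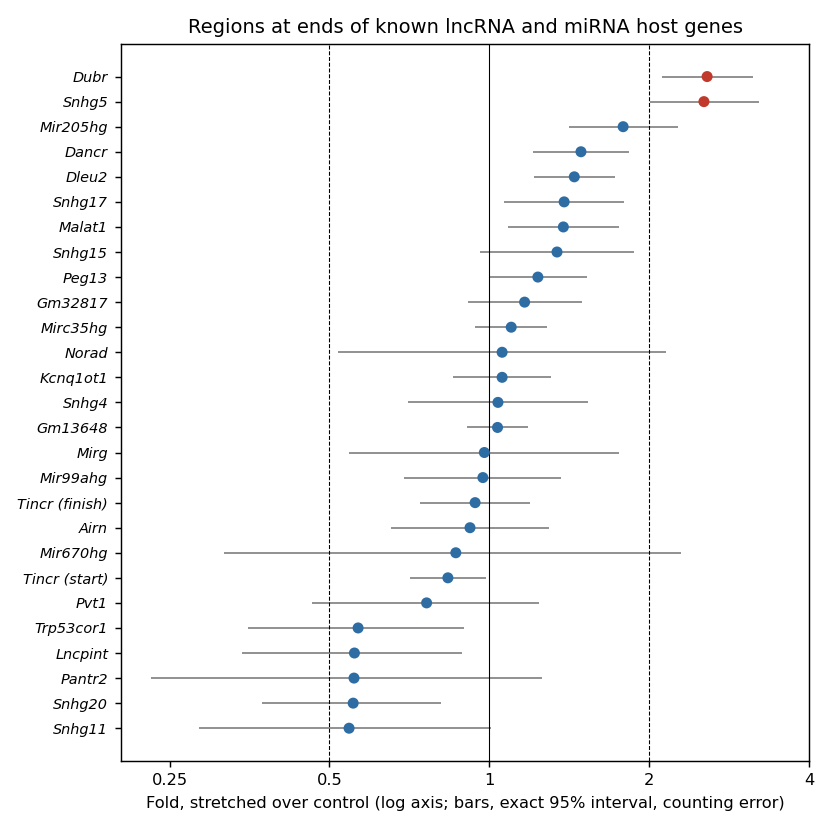
Fold, stretched over control (log axis), with exact 95% intervals for counting error, at the 22 regions of the list of known lncRNA genes, at 3 further miRNA hosts and at both ends of Tincr. Red points (Dubr and Snhg5) were called higher; dashed lines mark 2-fold, and the other 25 points were not called.

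Among the other known genes, Dubr, an lncRNA described in muscle differentiation, had 146 control and 355 stretched counts at its start, which is a fold of 2.57 (2.11 to 3.14). Malat1, an abundant RNA of nuclear speckles, had 125 and 163, a fold of 1.38 (1.08 to 1.75). Dancr, described as holding epidermal progenitors undifferentiated, had 162 and 228, a fold of 1.49 (1.21 to 1.83). With library totals the folds of Malat1 and Dancr were 0.974 and 1.05, and after removal of the trend with count both were 1.19. The imprinted RNAs known for silencing neighbouring genes had folds close to 1. Kcnq1ot1 had 180 and 180 counts, a fold of 1.06 (0.855 to 1.31), and Airn 77 and 67, a fold of 0.919 (0.653 to 1.29). The ends of Igf2r, the protein-coding gene nearest to the Airn region, had 28 and 70 counts, a fold of 2.64, and were called higher. Peg13, also imprinted, had 167 and 195, a fold of 1.23 (0.998 to 1.53). Trp53cor1, an RNA induced by p53 and beside Cdkn1a, had 56 and 30 counts, a fold of 0.566 (0.351 to 0.897), and Lncpint 55 and 29, a fold of 0.557 (0.343 to 0.889). Neither was called with TMM scaling, and both were with library totals, at 0.400 and 0.394. Pvt1, beside Myc, had 43 and 31 counts, a fold of 0.762 (0.464 to 1.24). Norad (18 and 18), Mirg (27 and 25), Mir670hg (11 and 9) and Pantr2 (19 and 10) were too sparse for an interval narrower than 3-fold from end to end. Mir99ahg had 75 and 69, a fold of 0.972 (0.691 to 1.37).

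Some genes outside the naming rule were picked after their values were seen, for their known roles in skin or in development. Tincr had 339 control and 268 stretched counts at its start, which is a fold of 0.835 (0.709 to 0.983), and 154 and 137 at its finish, a fold of 0.940 (0.741 to 1.19). Egfros lies on the opposite strand within Egfr, the gene of the epidermal growth factor receptor. It had 142 and 169 at its start, a fold of 1.26 (1.00015 to 1.58), which was 0.889 with library totals. At its finish it had 155 and 160, a fold of 1.09. Both genes were thus open at start and finish in both animals, with modest differences under TMM scaling. The fold at the Tincr start was 0.591 with library totals and 0.601 after removal of the trend with count. Wincr1, known as a Wnt-induced lncRNA of dermal fibroblasts, had 96 and 86 counts, a fold of 0.947. Chaserr, upstream of Chd2 and known for limiting its expression, had 213 and 298, a fold of 1.48 (1.24 to 1.77). That fold was 1.05 with library totals and 1.11 after removal of the trend with count. Morrbid had 219 and 193, a fold of 0.931. Bmncr, with 27 and 12 counts, a fold of 0.470 (0.217 to 0.959), was called lower on few counts, and its fold was 0.517 after removal of the trend with count.

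Genes named for lying opposite to or overlapping another gene gave 22 regions, of which 1 was called higher and 3 lower, with a median log2 fold of -0.13. These are 4.55% and 13.6% of few regions, beside 6.99% and 8.79% of all autosomal regions, and nothing is read from the counts. Sox1ot, beside the gene of the neural transcription factor SOX1, had 41 control and 15 stretched counts, which is a fold of 0.387 (0.199 to 0.713). Tbx3os2, beside the gene of the T-box factor TBX3, had 33 and 13, a fold of 0.416 (0.201 to 0.812). Rab11fip4os2 had 64 and 28, a fold of 0.462 (0.285 to 0.731). Sox5os3 was called higher with 15 and 42, a fold of 2.96 (1.61 to 5.74). All 4 rest on under 100 counts. The most covered of the group, Fzd10os, had 364 and 431 counts, a fold of 1.25 (1.09 to 1.44), and Hk1os 267 and 345, a fold of 1.37 (1.16 to 1.61). Apart from Kcnq1ot1, the genes of this class are outside the naming rule and are given after their values were seen. Catalogue genes of the Gm series made up most of the set, 1191 regions with 71 called higher and 77 lower (median -0.03), and Rik clones gave 255 with 20 and 16 (0.09).

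For 57 genes more than 1 end had a region. In 38 the log2 folds of both ends had the same sign, and across the 57 the Spearman correlation of the ends was 0.47 and the Pearson correlation 0.45, as a description of ends that share a locus and both libraries. In 12 genes 1 end was called, in 0 both were called in the same direction, and in 0 they were called in opposite ones. Gm46766 had log2 folds of 0.94 and 1.29, 2310001H17Rik 1.04 and 0.83, and Gm34974 -0.96 and -1.51. These 3 had 1 end called and the other close to it. At others of the 12 the ends differed widely, as at Gm32827 (-0.18 and 1.48), Gm31753 (1.49 and 0.08), Gm34403 (-0.06 and 1.11) and Gm4814 (-1.18 and -0.29). All 7 were chosen after their values were seen.

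The nearest protein-coding gene had a measured region at its ends for 1077 of the lncRNA ends, at 900 genes, with AY036118 left out. The Spearman correlation of the log2 folds was 0.26, and it was 0.27 for pairs within 20 kb, 0.26 from 20 to 100 kb and 0.21 beyond. Of all 1077 pairs, the neighbour was called higher in 98 and lower in 32. Of 62 lncRNA ends called higher, the neighbour was called higher at 11 and lower at 2. Of 72 called lower, the neighbour was called higher at 1 and lower at 5. The median log2 fold of the neighbours was 0.57 beside the higher ends and 0.00 beside the lower ones, against 0.36 for all neighbours. Most neighbours of called lncRNA ends were thus not called. Tincr, with a fold of 0.835 at its start, lies 6031 bp from an end of Safb2, whose ends had 142 and 263 counts, a fold of 1.96.

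At the thresholds of the selection, 31 regions of 15 to 19 counts just outside it had a median log2 fold of -0.07 with 0 called, and 49 of 20 to 24 counts just inside had -0.06 with 1 called higher and 5 lower. The 53 lncRNA ends at 4 to 5 kb from a protein-coding end had a median of 0.05, and the 54 at 5 to 6 kb had 0.10. The 1521 lncRNA ends within 5 kb of a protein-coding end, all outside the selection, had a median of 0.29, with 10.1% called higher and 2.56% lower. The same values for 11051 regions at protein-coding ends were 0.29, 9.45% and 2.53%. The 1521 include regions that also overlap a protein-coding end, such as those of Gas5, Snhg1 and Snhg6, so they share regions with the 11051. As a class they had a higher median than the 1547 ends of the selection (0.29 against -0.00), and also more counts (274 against 108). At 4 to 5 kb 0 of the 53 ends were called higher, against 4 of the 54 at 5 to 6 kb. Whether ends near a protein-coding end but not overlapping it had higher folds was not tested. No replicate checks the difference between the 1521 and the 1547, and the part of the counts in it was not tested.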

How the data were processed

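Per the submitters' processing notes, the tools were MACS2 2.1.0.20151222, HTSeq, Bowtie2 2.2.6, Picard and SAMtools, on GRCm38. The sources used here do not say which tool counted or whether duplicates were removed. The authors deposited, for each library, a raw count per merged region. Per the file headers, peaks were called with MACS2 on each library alone at a q cutoff of 0.05, and the deposited tables give the pileup at the summit, a signal in fragments, the -log10 p-value and q-value, and the fold enrichment, a ratio to local background. Pileup and -log10 values are not printed here.

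Libraries were scaled by TMM over all regions (edgeR 4.0.16, R 4.3.3). Folds carry exact Clopper-Pearson intervals (95%) of the stretched share. Without replicates no test could be run. Reads lack molecular identifiers and are not independent molecules. Gene ends came from the RefSeq table and strand, starts and sequences from the RefSeq promoter windows (GRCm38.p6). All lncRNA genes of that table have the biotype lncRNA. The neighbour's fold sums the regions overlapping its outermost ends and leaves out starts inside the gene. The calling rule was run on simulated counts that held counting error only. That run lacks any spread between animals, so it gives no support to the calls.

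Named genes are the 10 largest folds in each direction with at least 100 counts, the 10 regions with the most counts, and the known lncRNA list; no gene had 3 regions called the same way. Members and lists were chosen with earlier results of these data known. Alternatives were other scalings (DESeq2 1.42.0 among them), removal of a lowess trend, and other count, fold, interval, distance and overlap limits. The CpG classes and their alternatives were added after the data were seen. The planned rule for sequences (the 12 with the most counts) was replaced by 8 that span the results. Computation used scipy 1.17.1, statsmodels 0.14.6, pandas 2.3.3, numpy 2.4.6 and matplotlib 3.10.9 in Python 3.11.15.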

Additional observations from a re-analysis of the deposited data

How the results depend on the processing

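The 96 lncRNA ends called higher and 100 called lower became 14 and 327 with library totals, and 56 and 147 with totals outside large regions. Limits of 100 counts gave 47 and 21, of 50 counts 51 lower, of 20 kb from protein-coding ends 61 and 55, and ends within 1 kb instead of overlapping 198 and 342 of 3644. A fold of 1.5 gave 218 and 194, a fold of 3 gave 11 and 25. The median log2 fold of -0.00 became -0.50 with library totals and -0.14 with totals outside large regions. Peaks in both libraries covered 741 of the 984 ends beyond 20 kb. For the CpG classes the difference of 0.29 became 0.13 with the count trend removed and 0.12 beyond 20 kb. CpG-rich starts called higher, 19, became 1 with library totals, 9 with totals outside large regions, 8 with the trend removed, 12 with a stricter CpG limit and 7 beyond 20 kb. Those called lower, 4, became 19 with library totals, 6 with totals outside large regions, 2 at 50 counts, 1 at 100, 0 at 200, 1 with the stricter limit and 2 beyond 20 kb. The cause of these shifts was not tested, other than that higher limits leave fewer regions. Of 65 folds of named regions, 0 reversed as calls. Of 15 called higher, 6 stayed called with library totals, 14 with totals outside large regions, 15 with DESeq2 factors and 11 with the trend removed, and of 11 called lower, 11, 11, 11 and 10. No paired analysis was possible because each group has 1 library, and for the same reason no library could be left out. Depth limits the ends under 50 counts most, 338 of the 1547.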

Other observations

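Ends of known lncRNA genes within 5 kb of a protein-coding end, which the selection leaves out, gave 5 regions called higher and 0 lower of 22. Of all 1521 lncRNA ends so placed, 10.1% were called higher and 2.56% lower, and of all autosomal regions 6.99% and 8.79%. Snhg8 had 180 control and 517 stretched counts, which is a fold of 3.04 (2.56 to 3.62). Gas5, whose RNA is a host of snoRNAs and is known to build up in growth arrest, had 134 and 309, a fold of 2.44 (1.98 to 3.01). Lockd, downstream of Cdkn1b, had 77 and 171, a fold of 2.35 (1.78 to 3.11). Crnde, beside Irx5, had 176 and 356, a fold of 2.14 (1.78 to 2.58), and Snhg6 78 and 149, a fold of 2.02 (1.52 to 2.69). Snhg1 had 92 and 172, a fold of 1.98 (1.52 to 2.57), just under the limit. Neat1, the RNA that builds paraspeckles, had 393 and 535, a fold of 1.44 (1.26 to 1.64), close to the 1.38 of its neighbour Malat1. Snhg7 had 174 and 128, a fold of 0.777 (0.614 to 0.982). Snhg16 and Snhg9 had folds of 1.46 (1.15 to 1.84) and 1.44 (1.07 to 1.96), and Zfas1 had 1.73 (1.44 to 2.08). Nearer to 1 were Snhg3 (1.02), Snhg18 (1.07), Snhg10 (1.199, interval 1.08 to 1.33) and Snhg12 (1.23, interval 0.735 to 2.08). Several of these regions also overlap an end of the protein-coding gene (Gas5 with Zbtb37, Snhg1 with Slc3a2, Snhg6 with Mcmdc2), so their counts cannot be assigned to the lncRNA.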
